A study of Rattus norvegicus with 12 samples.

Results

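Transcript levels of 3 cell cycle genes, *Ccnd1*, *Cdk1* and *Pcna*, were followed in NRVM, that is, ventricular myocytes of newborn rats in primary culture. They were chosen by identifier (ENSRNOG00000020918, ENSRNOG00000000632 and ENSRNOG00000021264), and all 3 were found among the 15920 genes of the deposited table. Cells came from Sprague Dawley pups aged 2 to 3 days. They were grown for 48 h in medium with serum, then kept for 48 h without serum before stimulation. RNA-seq was done on 3 libraries in each of 4 groups. These were vehicle (called baseline), THZ1 at 10 nM, the α1-adrenergic agonist phenylephrine (PE) at 100 µM, and both agents (PE + THZ1). By the authors' methods, cells were incubated with inhibitor or vehicle before PE was added. The sample labels give 48 h of treatment for all groups, but 6 of the table's column names, for every library that received PE, say 24 h. All groups share a culture history that bears on cell division. The cells were pre-plated for 1.5 h to remove cells that are not myocytes, and were then exposed for 24 h to BrdU, a thymidine analog used here to hold back proliferation. The other genes of the cell cycle, and the markers by which the labelled cell type would be checked, were not analysed here, because 0 of the identifiers could be paired with a symbol. The sample labels do not say whether the libraries came from separate cell preparations. The p-values therefore set a difference against the spread between these libraries. In the main fit that spread is pooled over the 4 groups and drawn toward that of other genes.

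The cell cycle is driven by cyclin-dependent kinases, each of which needs a cyclin partner. Cyclin D1, the product of *Ccnd1*, rises with growth signals and activates CDK4 and CDK6 early in G1, which releases E2F transcription factors. PCNA, the sliding clamp that holds DNA polymerases on the template, serves in S phase and in DNA repair. CDK1, the kinase of G2 and mitosis, works with cyclins A and B and is itself switched on by CDK7, one of the kinases that THZ1 inhibits. Heart muscle cells leave the cell cycle shortly after birth and grow mainly in size, and cyclin D1 is also known as a gene that responds to hypertrophic signals.

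Promoters were looked up for all 3 members and are shown for *Cdk1* and *Pcna*, the 2 for which a window was found. Each is the 250 bases before the gene's start, taken from RefSeq on build GRCr8, which is not the build of the deposited table. That of *Cdk1* lies at chr20:19265043-19265292 on the plus strand and that of *Pcna* at chr3:139955821-139956070 on the minus strand. Capitals mark the words searched for on both strands, in the window from 250 bases before to 50 after the start. These were the CCAAT box (CCAAT, or ATTGG as read on the other strand), the cell cycle homology region CHR (TTTGAA), the E2F site (TTTCCCGC, TTTCGCGC, TTTGCCGC or TTTGGCGC) and the TATA box (TATAAA).
*Cdk1*: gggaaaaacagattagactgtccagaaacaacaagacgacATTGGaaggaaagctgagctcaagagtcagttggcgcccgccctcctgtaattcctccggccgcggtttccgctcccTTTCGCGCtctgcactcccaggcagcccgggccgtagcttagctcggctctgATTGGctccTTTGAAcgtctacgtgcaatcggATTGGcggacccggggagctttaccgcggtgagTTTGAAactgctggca
*Pcna*: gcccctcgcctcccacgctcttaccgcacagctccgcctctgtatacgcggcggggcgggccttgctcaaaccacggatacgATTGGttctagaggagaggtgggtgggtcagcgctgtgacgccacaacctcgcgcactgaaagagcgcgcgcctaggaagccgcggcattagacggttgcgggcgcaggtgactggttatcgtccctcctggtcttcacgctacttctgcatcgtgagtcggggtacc
The *Cdk1* window holds 3 CCAAT boxes, which begin 210, 81 and 49 bases before the start, all on the other strand. It also holds 2 CHR words, at 72 and 16 bases before the start, and 1 E2F word, TTTCGCGC, at 133 bases. The *Pcna* window holds 1 CCAAT box, 168 bases before the start, with 0 CHR and 0 E2F words, and neither window holds a TATA box. None of these words overlap. Among 27457 rat promoter windows of the same length, 37.7% hold a CCAAT box, 18.1% a CHR word, 2.25% an E2F word and 14.3% a TATA box. The matches are descriptions of the sequence, and no binding was measured here. Whether they bear on the levels of these genes was not tested.

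Values below are normalized read counts, in which each library's reads per gene are divided by that library's size factor. Libraries held 30458862 to 45885754 counted reads over the genes of the deposited table. The reads of the 3 genes ranged from 453 to 9879 per library. Counting error alone (the square root of the reads) comes to 1.01% to 1.46% of the level for *Ccnd1*, 1.70% to 2.43% for *Pcna* and 2.46% to 4.70% for *Cdk1*, the least abundant in reads. This scaling left the groups with unequal totals. Normalized counts of all genes summed to 40.4 ± 0.131 M (SD, n = 3) in PE libraries and 38.0 ± 1.92 M in baseline libraries, but to 34.2 ± 0.470 M and 33.8 ± 0.587 M in those of THZ1 and PE + THZ1. Equal library totals, a different scaling, moved the median log2 change of all genes. It went from 0.0053 to 0.26 for PE + THZ1 against PE, and from 0.0013 to 0.15 for THZ1 against baseline. For PE + THZ1 against baseline it went from 0.0041 to 0.17, and for PE against baseline from 0.018 to -0.071. In bulk RNA, fewer cells of a type and less RNA per cell cannot be told apart.

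*Ccnd1* rose with PE, and was lower with PE + THZ1 than with PE, though still above baseline. At baseline its normalized counts were 5403, 6379 and 5480 in replicates 1 to 3. With PE they were 9336, 9645 and 9681. With PE + THZ1 they were 6555, 6618 and 7059, and with THZ1 alone 5381, 5016 and 5276. The PE libraries lay above all others, the PE + THZ1 libraries came next, and those of baseline and THZ1 alone lay close to each other without overlap. The log2 change with PE was 0.74 (standard error, SE, 0.06, adjusted p = 6.53e-09, limma), or 1.66-fold with a 95% interval from 1.54 to 1.81. With equal library totals it was 0.65, against a median of -0.071 over all genes. PE + THZ1 was lower than PE, with a log2 change of -0.50 (SE 0.06, adjusted p = 4.31e-07, limma), which removed 68.4% of the PE step on the log2 scale. With equal library totals the share was 38.0% and the change -0.25, still past the threshold (adjusted p = 0.00567, limma), against the median of 0.26 over all genes. A rise over baseline remained in the presence of both agents, at 1.17-fold (95% interval 1.08 to 1.27, adjusted p = 0.00189, limma), and its log2 change of 0.23 became 0.40 with equal totals.

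With THZ1 alone *Ccnd1* differed little from baseline. The mean was 5225 ± 188 (SD, n = 3) against 5754 ± 542 at baseline, a log2 change of -0.14 (SE 0.06) that was just past the threshold (adjusted p = 0.0487, limma). This call did not hold widely. Without baseline replicate 2, the highest of its group, the log2 change was -0.059 (adjusted p = 0.237, limma), with equal library totals it was 0.015, and the call was lost on leaving out any of 9 of the 12 libraries. Some of these 9 were libraries with PE, outside the comparison. Leaving those out kept the log2 change at -0.14 and moved only the adjusted p, for example to 0.0617 (limma) without PE replicate 2.

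*Pcna* did not follow *Ccnd1*. Its normalized counts were 1828, 2388 and 2038 at baseline and 2131, 2425 and 2393 with PE. In the libraries of THZ1 alone they were 2364, 2615 and 2560, and in those of PE + THZ1 2685, 2759 and 2773. The baseline libraries spread widely and overlapped those of PE and of THZ1 alone, while the PE + THZ1 libraries lay above every other library. The log2 change with PE was 0.16 (SE 0.08, 95% interval -0.00035 to 0.32) and did not pass the threshold (adjusted p = 0.0842, limma). It did pass, at 0.26 (adjusted p = 0.000606, limma), without baseline replicate 2 and, at 0.22 (adjusted p = 0.0345, limma), without PE replicate 1. It was lower, at 0.068, without baseline replicate 1 and, at 0.069 (adjusted p = 0.563, limma), with equal library totals. With the replicate number as a block the value was again 0.16 and passed the threshold (adjusted p = 0.0207, limma).

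With THZ1, *Pcna* was higher both in the absence and in the presence of PE. THZ1 alone gave a log2 change of 0.28 (SE 0.08, adjusted p = 0.00517, limma), or 1.21-fold with a 95% interval from 1.09 to 1.35. With PE + THZ1 against PE the log2 change was 0.24 (SE 0.08, adjusted p = 0.00934, limma), or 1.18-fold. Equal library totals made these changes 0.43 and 0.50, against medians of 0.15 and 0.26 over all genes. Without PE replicate 1, the lowest of its group, PE + THZ1 against PE was 0.19 and no longer past the threshold (adjusted p = 0.0617, limma). The log2 change from baseline to PE + THZ1 was 0.40 (SE 0.08, adjusted p = 0.000239, limma), or 1.32-fold with a 95% interval from 1.18 to 1.47, with no overlap between the libraries.

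*Cdk1* rose with PE and fell with THZ1, below baseline, whether or not PE was present. Its normalized counts were 911, 1112 and 967 at baseline and 1445, 1684 and 1623 with PE. With THZ1 alone they were 516, 536 and 500, and with PE + THZ1 616, 705 and 680. The order of the groups was thus PE, baseline, PE + THZ1 and THZ1 alone, with no overlap between any of them. PE gave a log2 change of 0.67 (SE 0.08, adjusted p = 1.11e-06, limma), or 1.59-fold with a 95% interval from 1.42 to 1.78. With equal library totals it was 0.58. PE + THZ1 against PE gave -1.25 (SE 0.08, adjusted p = 2.24e-10, limma), or 0.422-fold with a 95% interval from 0.377 to 0.472.

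This fall was 186% of the PE step on the log2 scale (170.1% with equal library totals), so that *Cdk1* lay below baseline. Against baseline, the log2 change was -0.58 with PE + THZ1 (SE 0.08, adjusted p = 7.18e-06, limma). THZ1 alone lowered it further, by a log2 change of -0.94 (SE 0.08, adjusted p = 2.2e-08, limma), to 0.521-fold of baseline with a 95% interval from 0.466 to 0.583. These 4 changes of *Cdk1* kept their direction and stayed past the threshold under the 11 other settings and with each of the 12 libraries left out in turn. For each change, leaving out a library of the groups not compared could not move the log2 change, only the adjusted p. With equal library totals the falls were -0.99 for PE + THZ1 against PE, -0.41 for PE + THZ1 against baseline and -0.79 for THZ1 alone.

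**Figure D1:**
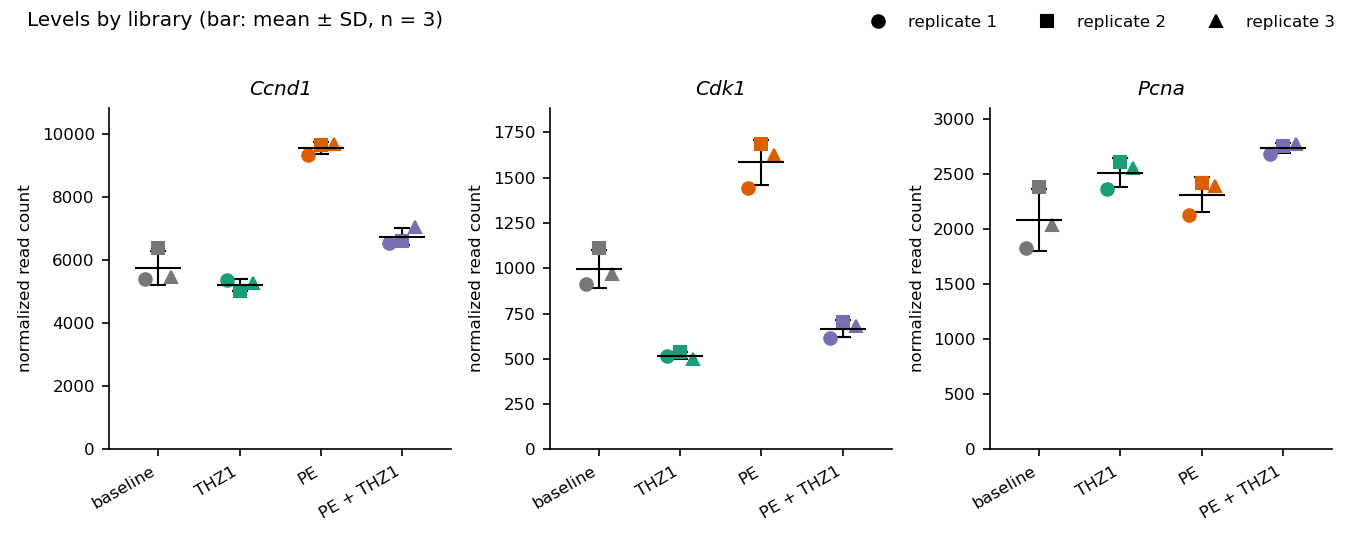
Normalized read counts (vertical axis, from 0) of *Ccnd1*, *Cdk1* and *Pcna* in each of the 12 libraries, by group on the horizontal axis. Points are libraries with replicate numbers as symbols, and bars give the mean ± SD (n = 3). *Ccnd1* and *Cdk1* are highest with PE, at 9554 ± 190 and 1584 ± 125, whereas *Pcna* is highest with PE + THZ1, at 2739 ± 47.5.

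PE was also compared on the background of THZ1. From THZ1 alone to PE + THZ1, *Ccnd1* rose by a log2 change of 0.37 (SE 0.06, adjusted p = 0.000104, limma), or 1.29-fold. *Cdk1* rose by 0.36 (SE 0.08, adjusted p = 0.00202, limma), or 1.29-fold. For *Pcna* the log2 change was 0.13 (SE 0.08, 95% interval -0.033 to 0.28), which did not pass the threshold (adjusted p = 0.255, limma), although all 3 PE + THZ1 libraries lay above the 3 with THZ1 alone. It was 0.082 without THZ1 replicate 1, and it passed the threshold (adjusted p = 0.025, limma) when only those 2 groups were fitted. For *Ccnd1* and *Cdk1* these rises were smaller than those from baseline to PE, which were 1.66-fold and 1.59-fold.

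Whether the change with THZ1 differed by the presence of PE was tested by the interaction term. It was -0.37 for *Ccnd1* (SE 0.08, adjusted p = 0.00174, limma), which is the log2 change with THZ1 in the presence of PE minus that in its absence. For *Cdk1* it was -0.31 (SE 0.11, adjusted p = 0.039, limma), a call that was lost with equal library totals, where the value was -0.20 (adjusted p = 0.271, limma), and with any of 8 of the 12 libraries left out. With equal totals the interaction of *Ccnd1* was -0.26 and also no longer past the threshold (adjusted p = 0.0641, limma). For *Pcna* it was -0.033 (SE 0.11, 95% interval -0.26 to 0.19, adjusted p = 0.841, limma).

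**Figure D2:**
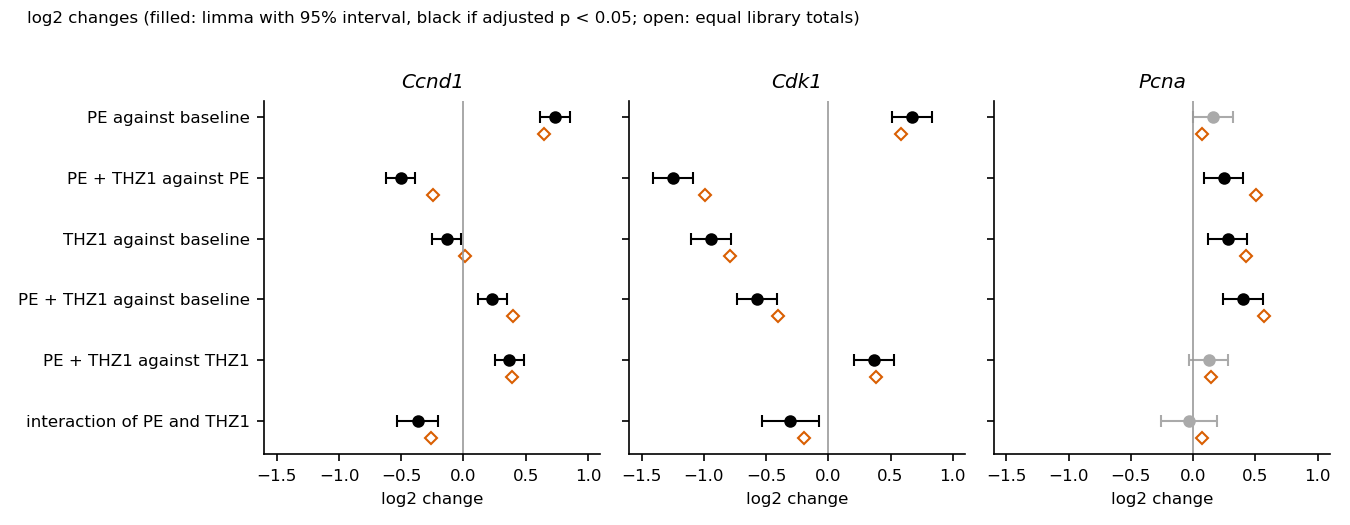
log2 changes of the 3 genes (horizontal axis) in each comparison (vertical axis). Filled points are limma estimates with 95% intervals, black where the adjusted p is under 0.05 and grey otherwise, and open diamonds are the same with equal library totals. The intervals of *Cdk1* and *Pcna* lie on opposite sides of 0 for PE + THZ1 against PE, at -1.25 and 0.24, and for THZ1 against baseline, at -0.94 and 0.28.

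Calls were frequent among all 14312 genes tested, and the members are read against that background. PE against baseline called 55.2% of genes and 2 of the 3 members. PE + THZ1 against PE called 61.7% of genes, THZ1 against baseline 51.9% and PE + THZ1 against baseline 54.1%, and each of these called all 3 members. PE + THZ1 against THZ1 called 24.3% of genes and the interaction 32.2%, with 2 of the 3 members in both. The share of all genes whose groups did not overlap was not counted. The absence of overlap is therefore not read as particular to the members. With equal library totals the share of called genes that were higher moved from 54.5% to 37.4% for PE, from 49.3% to 77.2% for PE + THZ1 against PE, from 49.7% to 72.5% for THZ1 alone, from 49.4% to 74.3% for PE + THZ1 against baseline and from 43.2% to 73.2% for the interaction.

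The size of the changes placed the members differently among all genes. With PE, 4.97% of the genes tested had a higher log2 change than *Ccnd1* and 6.05% a higher one than *Cdk1*, against 33.7% for *Pcna*. With PE + THZ1 against PE, the log2 change was higher than that of *Cdk1* in 96.6% of genes, of *Ccnd1* in 84.7% and of *Pcna* in 28.4%. For THZ1 alone the shares were 95.9% for *Cdk1*, 65.7% for *Ccnd1* and 18.9% for *Pcna*. *Cdk1* thus lay in the low tail of both THZ1 comparisons and *Pcna* within the bulk of genes on the higher side. PE against baseline shares its PE libraries with PE + THZ1 against PE and its baseline libraries with THZ1 against baseline.

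**Figure D3:**
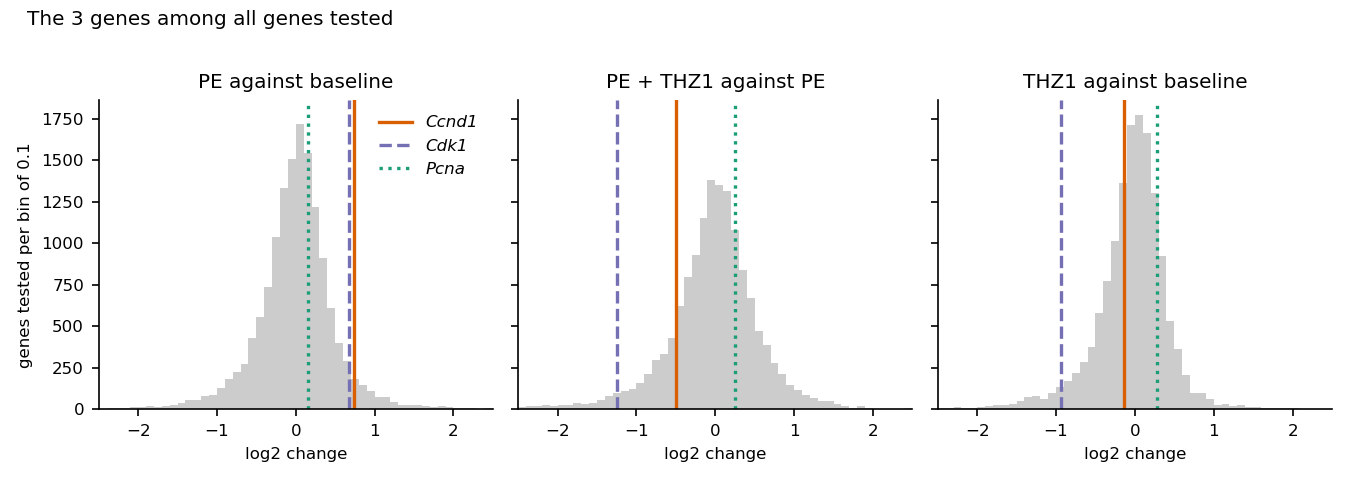
Number of tested genes (vertical axis) per bin of 0.1 in log2 change (horizontal axis), with lines at *Ccnd1*, *Cdk1* and *Pcna*, for 3 comparisons. Genes beyond the ends of the axis are not drawn. *Ccnd1* and *Cdk1* are side by side at 0.74 and 0.67 with PE, and stand apart at -0.50 and -1.25 for PE + THZ1 against PE.

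Ratios between the members within a library do not depend on the size factor, and were added after the data had been seen. The ratio of *Cdk1* to *Ccnd1* counts was 0.173 ± 0.00407 (SD, n = 3) at baseline and 0.166 ± 0.0101 with PE, with overlapping libraries. THZ1 alone gave 0.0992 ± 0.00673 and PE + THZ1 0.0990 ± 0.00665, again overlapping. All 6 libraries with THZ1, from 0.0941 to 0.107, lay below all 6 without it, which ran from 0.155 to 0.176. The ratio therefore split the libraries by THZ1, and the groups with and without PE overlapped on either side of that split.

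The ratio of *Cdk1* to *Pcna* kept the libraries of all groups apart. It was 0.684 ± 0.00962 (SD, n = 3) with PE and 0.479 ± 0.0169 at baseline. PE + THZ1 gave 0.243 ± 0.0131 and THZ1 alone 0.206 ± 0.0116, with no overlap between groups. The ratio of *Ccnd1* to *Pcna* was 4.14 ± 0.216 with PE and 2.77 ± 0.159 at baseline. PE + THZ1 gave 2.46 ± 0.0753 and THZ1 alone 2.09 ± 0.180, also without overlap. Over the 15 comparisons of ratios between groups, the groups that did not overlap gave p = 0.1 by a two-sided exact permutation test, the smallest that 3 libraries against 3 allow (0.115 adjusted over the 15). The *Cdk1* to *Ccnd1* ratio gave p = 0.3 (exact, 0.321 adjusted) for PE against baseline and p = 0.9 (exact, 0.9 adjusted) for PE + THZ1 against THZ1. These exact tests could not have passed 0.05 whatever the difference. How many other pairs of genes give ratios that keep the groups apart was not counted.

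**Figure D4:**
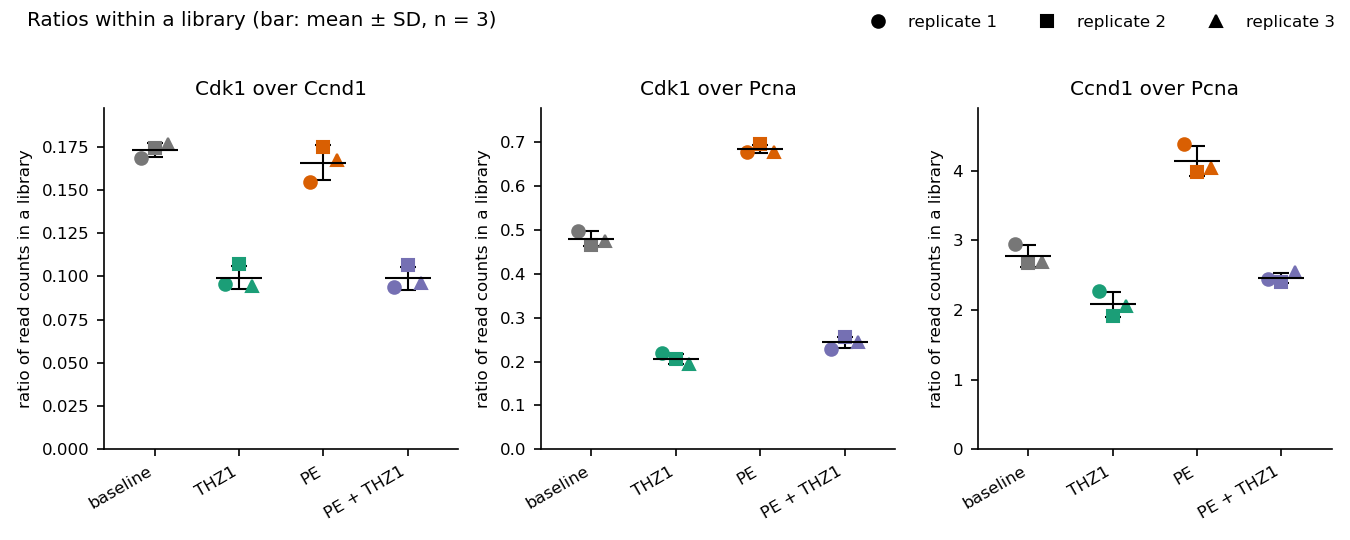
Ratios of the read counts of 2 genes in the same library (vertical axis, from 0) by group (horizontal axis), with replicates as symbols and bars for the mean ± SD (n = 3). As gene lengths differ, the height of a ratio is not a ratio of molecules. *Cdk1* over *Ccnd1* falls into a pair of levels, near 0.17 without THZ1 and near 0.099 with it, and *Cdk1* over *Pcna* is apart in every group.

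Within groups the members also moved together to some degree. Baseline replicate 2 was the highest of its group for all 3 genes, by 0.15 (*Ccnd1*), 0.16 (*Cdk1*) and 0.20 (*Pcna*) on the log2 scale over the group mean. This library also differed as a whole, with a normalized total of 35.8 M against 38.8 M and 39.4 M in baseline replicates 1 and 3. Without it, 8687 genes were called for PE against baseline, against 7899 with it. PE replicate 1 was the lowest of its group for all 3, at -0.033, -0.13 and -0.12. By replicate number, replicate 1 of *Pcna* was the lowest in all 4 groups, at -0.18 (baseline), -0.087 (THZ1 alone), -0.12 (PE) and -0.029 (PE + THZ1). Replicate 1 of *Cdk1* was below the group mean in all 4 groups, from -0.13 to -0.0030, and replicate 2 was above it in all 4 for both genes. *Ccnd1* showed no such order. Deviations from the group means of *Cdk1* and *Pcna* had the same sign in 11 of 12 libraries (Pearson r = 0.85). The values were 8 of 12 (r = 0.66) for *Ccnd1* and *Cdk1*, and 9 of 12 (r = 0.68) for *Ccnd1* and *Pcna*. The points share their library and its size factor, and such agreement was not computed for other genes. Coefficients of variation within groups ran from 1.99% to 9.42% for *Ccnd1*, 3.54% to 10.4% for *Cdk1* and 1.74% to 13.6% for *Pcna*, and were largest at baseline for each gene.

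Over the 12 libraries as a whole, log2 levels of *Ccnd1* and *Cdk1* had a Pearson r of 0.81, and those of *Cdk1* and *Pcna* -0.41. *Ccnd1* and *Pcna* had 0.061. These values describe 4 groups of libraries more than 12 separate points. Of the 11163 other genes that averaged at least 100 normalized counts, 570 had an r over 0.95 with *Cdk1*, 180 with *Ccnd1* and 6 with *Pcna*. At an r over 0.9 there were 1223, 589 and 77 such genes. *Pcna* had the smallest differences between groups of the 3 and the widest spread at baseline, and the part of this in the counts was not tested. *Cdk1* was not among the closest genes to *Ccnd1* and ranked 1329 of the 11163. The highest r of any gene with a member was 0.996, that of ENSRNOG00000029434 with *Cdk1*, and the lowest was -0.994, that of ENSRNOG00000002382 with *Ccnd1*. Neither identifier could be paired with a symbol here. In the authors' division of all genes into 6 clusters, *Ccnd1* and *Cdk1* were placed in the same cluster of 3740 genes and *Pcna* in another of 5024. As these libraries also made the clusters, this describes the pattern and does not test it.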

How the data were processed

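NRVM were profiled by RNA-seq in 12 libraries, 3 in each of 4 groups given by the sample titles. Total RNA was isolated, and the paper names an mRNA library kit from either Illumina or Roche. By their methods and processing notes, the authors aligned single-end reads to rn5 with TopHat2 2.1.1, counted them per gene by strand with HTSeq, and scaled each library by a size factor from DESeq2. The deposited values are therefore a signal, normalized counts. The table's unnamed last column gives each gene's cluster. Each library's values step by what 1 read is worth, which gave back the reads, and 100.0% of values were whole within 0.01 of a read. Genes averaging at least 10 normalized counts were tested (14312 of 15920) on log2(normalized count + 1) with R 4.3.3 and limma 3.58.1, so fold changes are on that scale. All 12 libraries were in 1 fit with a trend in the prior variance, tests were two-sided, and p-values were adjusted by Benjamini-Hochberg with a threshold of 0.05. The fit was tested on simulated reads whose size factors were set by library totals, so that test does not bear on the choice of scaling. Only a small share of genes was changed in it, with the same spread beyond counting error for all, whereas calls were frequent in the data. It therefore does not show how the fit does where changes are that frequent.

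Alternatives were pseudocounts of 0.5 and 5, no minimum mean or one of 50, equal library totals, TMM, no trend, separate fits of the groups compared, edgeR 4.0.16 (quasi-likelihood), DESeq2 1.42.0, the replicate number as a block, and leaving out each library. The members and gene lists were chosen with earlier results of these data known. Named were the 3 members and, for likeness by Pearson r, a single identifier for each direction. Lists of 90 cell cycle genes and 27 cell type markers were not used here, as 0 identifiers were matched among 47357 RefSeq entries. Coordinates and promoters are from RefSeq (GRCr8). No entry was found there for the *Ccnd1* promoter. Exact tests used scipy 1.17.1, and figures matplotlib 3.10.9.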

Additional observations from a re-analysis of the deposited data

Results flagged for a closer look

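Of the members, 2 gave a change with THZ1 that differed by the presence of PE. For *Ccnd1* the interaction was -0.37 on the log2 scale (adjusted p = 0.00174, limma), where THZ1 gave -0.50 with PE and -0.14 without it. For *Cdk1* it was -0.31 (adjusted p = 0.039, limma), where THZ1 gave -1.25 with PE and -0.94 without it. Over the other settings and left-out libraries the adjusted p reached 0.0641 for *Ccnd1* and 0.271 for *Cdk1*, both with equal library totals. Among all genes tested, 18.3% had a negative interaction past the threshold.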

How the results depend on the processing

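Of 195 values of the members under other settings with all libraries kept, 183 kept their direction and their side of the threshold, as did 194 of 216 with a library left out. Many of the 216 left out a library that the comparison does not use, which cannot move its log2 change. Counts of genes called in the 6 comparisons stayed within 1.5 times in all 65 and 72 such cases. With equal library totals, THZ1 against baseline was 0.015 for *Ccnd1*, and the interaction was -0.26 for *Ccnd1*, -0.20 for *Cdk1* and 0.075 for *Pcna*, of which none passed the threshold. *Ccnd1* with THZ1 alone also lost its call, at an unmoved -0.14, with no minimum mean (adjusted p = 0.051, limma), with only the groups compared (0.112) and without the trend (0.108). The *Cdk1* interaction lost it with TMM (-0.28), without the trend (-0.31) and with edgeR (-0.28). *Pcna* passed the threshold for PE + THZ1 against THZ1 at 0.13 when only the groups compared were fitted. With the replicate block *Pcna* passed it for PE against baseline, at 0.16 (adjusted p = 0.0207, limma), and no other call of a member changed. The cause was not tested for any of these.

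With a library left out, *Pcna* ranged from 0.068 to 0.26 for PE against baseline and from 0.19 to 0.28 for PE + THZ1 against PE. *Ccnd1* with THZ1 alone ranged from -0.18 to -0.059. The interaction ranged from -0.39 to -0.24 for *Cdk1* and from -0.13 to 0.058 for *Pcna*, which turned positive without baseline replicate 1 (0.058) and without PE replicate 2 (0.0015).

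Same-numbered libraries had a mean r of 0.0330 between their deviations from the group means over 18 pairs, with 4 above 0.1. Over 36 pairs with other numbers the mean r was -0.0168, with 3 above 0.1. On these values, and with 5 of 12 libraries correlating best with their own number, the numbers were not taken as a pairing. *Pcna* and *Cdk1* were, however, below the group mean in replicate 1 and above it in replicate 2 in all 4 groups. With the block 8071 genes were called for PE against baseline, against 7899 without it.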
